A study of Mus musculus with 6 samples.

Results

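The genes described here are those of the epidermal differentiation complex, a cluster on mouse chromosome 3, together with other genes of the cornified envelope, the protein shell of dead surface keratinocytes. They were chosen by name: all symbols beginning Lce or Sprr, plus Lor, Flg, Flg2, Ivl, Rptn, Hrnr, Tchh, Crnn, Krtdap, Sbsn, Tgm1, Tgm3 and Cdsn, with at least 10 read pairs summed over the 6 libraries. Of 54146 gene rows, 51 carried such a symbol and 47 reached the minimum. The 4 that did not were Sprr2a1 with 2 read pairs, Sprr2a2 with 5, Sprr2c-ps with 1 and Sprr3 with 4. The libraries came from tumors of 4T1 cells, a mouse mammary carcinoma line, collected 3 weeks after nude mice received the cells orthotopically, that is into a mammary fat pad. In 3 libraries the grafted cells carried a knockout of Mki67 (Ki-67-KO, Mki67-/-), and in the other 3 they were wild type. Both groups share the nude host, which lacks a thymus and mature T cells and has abnormal hair, and whole pieces of tumor were used, so host cells contribute RNA. The labels do not give the number of knockout clones, so a difference between clones and an effect of the knockout cannot be told apart. Nor do they say whether each replicate is a separate animal, so p-values measure the spread between these libraries.

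Keratinocytes that leave the basal layer of the epidermis first make keratin filaments and desmosomes, and then the proteins of the envelope. Involucrin lays down a scaffold beneath the plasma membrane, loricrin, small proline-rich (Sprr) and late cornified envelope (Lce) proteins are added to it, and transglutaminases join them by isopeptide bonds. Filaggrin and the other proteins that fuse an S100 calcium-binding domain to long repeats pack the keratin filaments within. Most of these genes lie side by side, and in normal tissue they are known as markers of stratified, cornifying epithelium and not of mammary luminal cells.

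Gene counts came to 22081970 to 30772729 read pairs in Ki-67-KO libraries and to 37065778 to 38399826 in wild type libraries. Ki-67-KO replicate 2 stood apart from the other Ki-67-KO libraries, with correlations across genes of 0.968 to each against 0.985 between the other two. The share of unmapped pairs was 30.76%, 54.57% and 52.68% in Ki-67-KO replicates 1, 2 and 3, against 31.22% to 33.94% in wild type libraries. Mki67 itself was counted at 98.7, 117 and 139 CPM (read pairs scaled for library size and composition by the TMM method) in Ki-67-KO libraries, against 360, 395 and 325 CPM in wild type libraries (edgeR log2 fold change -1.61, SE 0.14, adjusted p = 6.79e-05). The groups did not overlap, in the direction of the labels. The luminal keratins Krt8 and Krt18, which mark 4T1 cells as epithelial, were at 1055 CPM or more in all 6 libraries. Below, 3 values given for a group are those of its replicates 1, 2 and 3.

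Transcripts of the cornified envelope were higher in the Ki-67-KO tumors, and above all in a single library. The summed level of the 47 genes was 181, 830 and 187 CPM in Ki-67-KO libraries, against 59.8, 89.6 and 75.5 CPM in wild type libraries. Each Ki-67-KO sum lay above each wild type sum, and the sum in replicate 2 was 4.59 times that in replicate 1 and 4.44 times that in replicate 3. Tchh and Crnn, described below, ran the other way in replicate 2. Without them the sums were 156, 826 and 127 CPM in Ki-67-KO libraries, against 47.2, 72.3 and 57.8 CPM in wild type libraries. Replicate 2 was then 5.29 times replicate 1 and 6.48 times replicate 3. In bulk tissue, more cells that make these transcripts and more RNA per cell cannot be told apart.

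Of the 47 genes, 40 had counts high enough to be tested with edgeR's quasi-likelihood test, and 32 of those were higher and 0 lower in Ki-67-KO tumors at an adjusted p under 0.05. Over all 19900 genes tested, 17.6% were higher and 18.4% lower. All 40 fitted log2 fold changes were positive, and DESeq2 gave 34 as higher and also 0 as lower. The 8 tested genes that missed the threshold were Lce6a, Lce1g, Lce1h, Lce1k, Hrnr, Sbsn, Crnn and Tchh. The fitted log2 fold changes of the 40 ran from 0.86 to 4.98 with a median of 2.71, where the median over all tested genes was 0.05. A gene could enter the test through the knockout libraries alone, so this median describes the tested genes and not all 47. The filter left out Sprr2b, Sprr2e, Sprr2j-ps, Sprr2k, Sprr4, Lce3a and Lce3e.

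The number of calls changed with the library left out, for these genes and for all genes. It was 41, 26 and 39 when Ki-67-KO replicate 1, 2 or 3 was left out, where 20.6%, 21.1% and 12.6% of all tested genes were higher. It was 10, 18 and 10 when wild type replicate 1, 2 or 3 was left out, where the share of all tested genes was 8.61%, 9.4% and 8.76%. None of these fits gave a gene of this set as lower, while 2257 to 4778 of all tested genes were lower.

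Counted by library, 34 of the 47 genes were higher in each Ki-67-KO library than in each wild type library, as were 19.6% of all 30344 genes with at least 10 read pairs. For 0 of the 47 did each Ki-67-KO library lie below each wild type library, against 18.2% of all genes. Ki-67-KO replicate 1 exceeded each wild type library for 43 of the 47 genes (46.3% of all genes), replicate 2 for 45 (35.1%) and replicate 3 for 39 (51.1%). The 13 genes whose groups overlapped were Sprr2b, Sprr2e, Sprr2j-ps, Sprr4, Lce6a, Lce1f, Lce1g, Lce1j, Lce1k, Flg, Hrnr, Crnn and Tchh.

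Ki-67-KO replicate 2 had the highest level of all 6 libraries for 44 of the 47 genes, against 21.6% of all genes, the exceptions being Sprr2k, Crnn and Tchh. For 32 of the 47 it was at least 4 times as high as each of the other 5 libraries, which held for 0.432% of all genes. Over the 44 genes with more than 3 wild type read pairs, the median ratio to the wild type mean was 2.69 in Ki-67-KO replicate 1, 15.8 in replicate 2 and 2.31 in replicate 3. Over all genes the same medians were 1.1, 0.91 and 1.17. The elevation in replicate 2 was thus many times that in replicates 1 and 3, which stood close to each other.

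**Figure D1:**
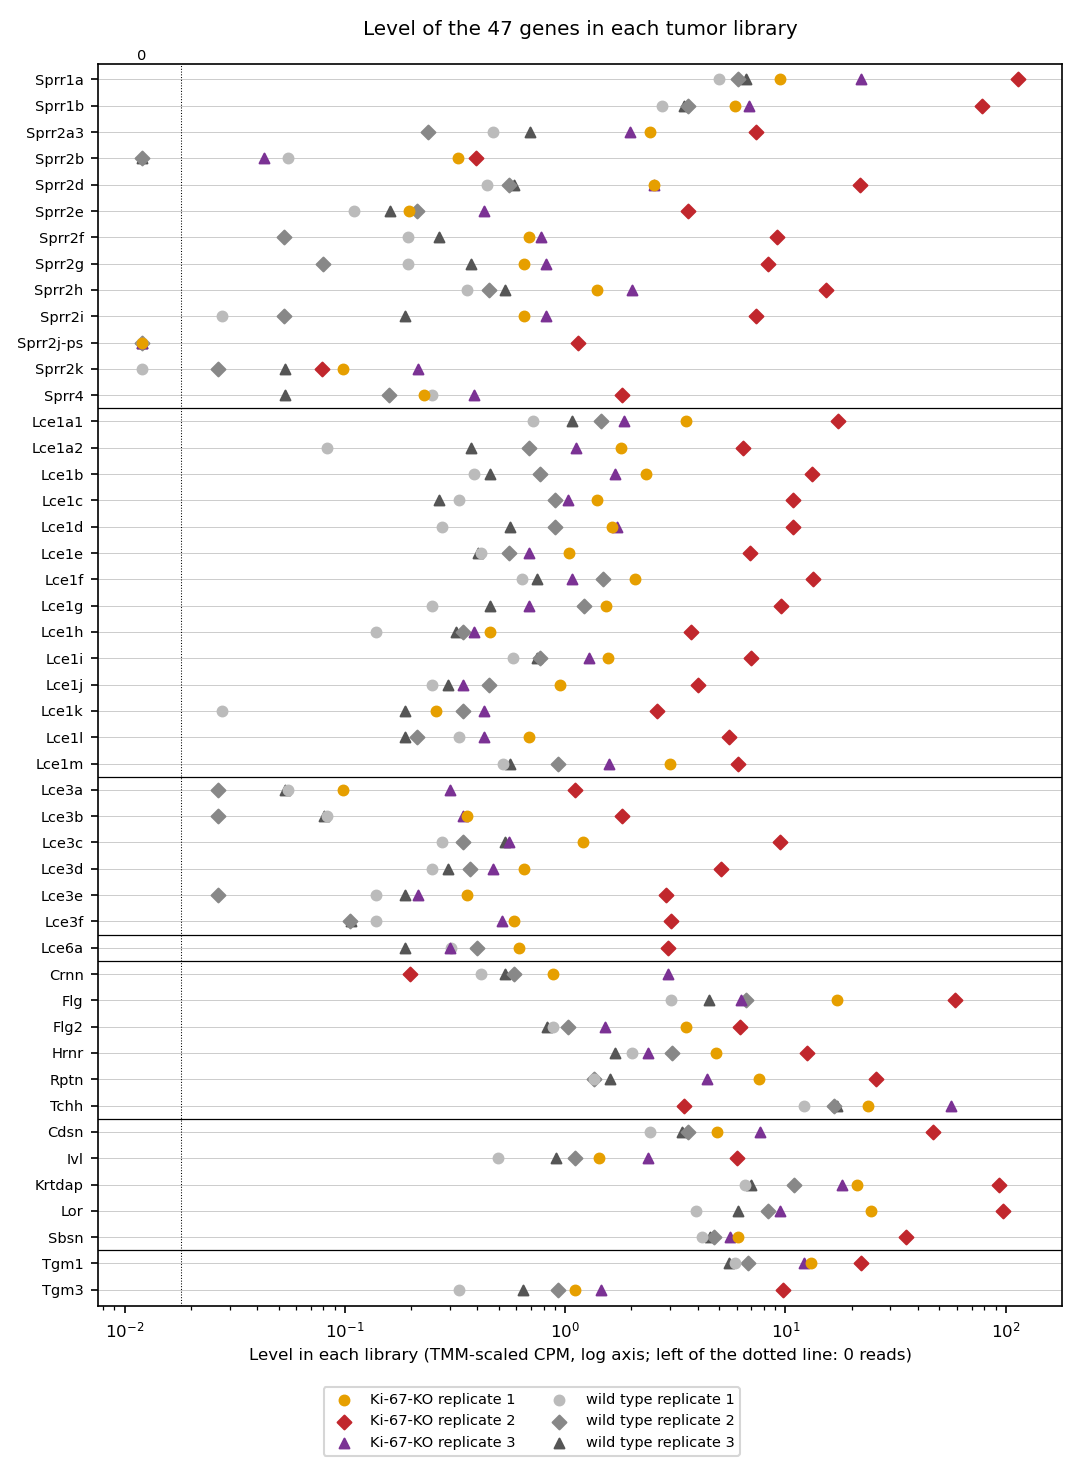
Level of each of the 47 genes (rows, grouped by family) in the 6 libraries, in TMM-scaled CPM on a log axis; points left of the dotted line stand for 0 read pairs. Ki-67-KO replicate 2 (red diamonds) lies furthest right for 44 of the 47 genes, while for Crnn and Tchh it lies furthest left.

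The families shared the order of the groups and differed in the size of the gap. The 13 Sprr genes summed to 24.6, 269 and 38.9 CPM in Ki-67-KO libraries, against 9.88, 11.5 and 13 CPM in wild type libraries. Lce genes, 21 in all, summed to 26.1, 144 and 17 CPM in Ki-67-KO libraries, against 6.18, 12.3 and 8.07 CPM in wild type libraries. Both families thus had non-overlapping sums. The 5 other envelope and secreted proteins (Lor, Ivl, Krtdap, Sbsn and Cdsn) summed to 58.2, 279 and 43.2 CPM in Ki-67-KO libraries, against 17.6, 28.7 and 21.9 CPM in wild type libraries. For the 6 S100-fused genes the sums were 57.7, 107 and 74.1 CPM in Ki-67-KO libraries, against 19.9, 29.4 and 26.3 CPM in wild type libraries. In this last family replicate 2 stood out least, and Tchh ran the other way.

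**Figure D2:**
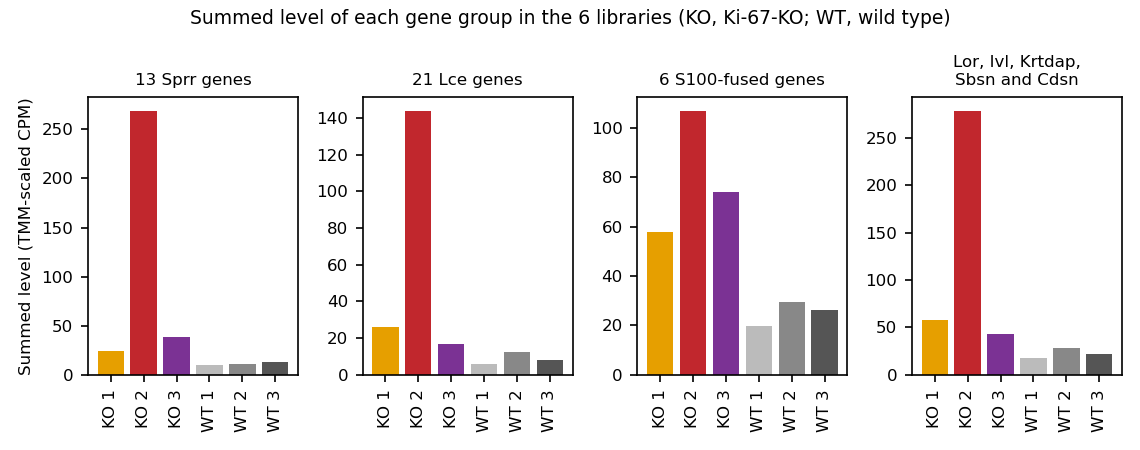
Summed TMM-scaled CPM (bars, from 0) of the Sprr, Lce, S100-fused and other envelope genes in Ki-67-KO replicates 1 to 3 and wild type replicates 1 to 3, with a separate scale in each panel. Ki-67-KO replicate 2 is the tallest bar in every panel, at 269 CPM for Sprr genes and 107 CPM for S100-fused genes.

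The families also ordered replicates 1 and 3 differently. Ki-67-KO replicate 3 lay below replicate 1 for 18 of the 21 Lce genes but for 2 of the 13 Sprr genes, Sprr2a3 and Sprr2b. Over the 47 genes it did so for 28, against 44.6% of all genes. Among wild type libraries, replicate 2 was the highest for 28 of the 47 genes (34.7% of all genes), among them 15 of 21 Lce genes and all 5 of Lor, Ivl, Krtdap, Sbsn and Cdsn, but only 2 of 13 Sprr genes. The difference between the families was not tested.

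Of the envelope precursors, Lor encodes loricrin, the glycine-rich bulk protein of the mature envelope. Lor stood at 24.6, 96.9 and 9.42 CPM in Ki-67-KO libraries, against 3.92, 8.32 and 6.07 CPM in wild type libraries. Every Ki-67-KO value lay above the wild type ones, though replicate 3 only just, and the call held (edgeR log2 fold change 2.84, SE 0.74, adjusted p = 0.0174). Without Ki-67-KO replicate 2 the difference was smaller and still passed (log2 fold change 1.45, adjusted p = 0.0146, edgeR). The promoter of Lor holds a match to the AP-1 motif TGANTCA, the site of Jun and Fos dimers, whose first base is at -48 from the start, and a TATA box (TATAAA) at -27. It is shown because AP-1 sites are the best known control elements of envelope genes, from 250 bases before to 50 bases after the RefSeq start (GRCm38.p6 chr3:92083093-92083392, minus strand), with both motifs in capitals.
Lor: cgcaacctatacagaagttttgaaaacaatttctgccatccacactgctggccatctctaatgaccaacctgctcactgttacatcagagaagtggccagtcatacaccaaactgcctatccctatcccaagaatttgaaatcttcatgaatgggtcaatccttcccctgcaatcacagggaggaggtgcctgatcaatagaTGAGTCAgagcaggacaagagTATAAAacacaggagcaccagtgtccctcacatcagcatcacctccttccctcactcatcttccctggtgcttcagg

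Ivl, the gene of involucrin, was measured at 1.43, 6 and 2.37 CPM in Ki-67-KO libraries, against 0.497, 1.11 and 0.909 CPM in wild type libraries. Its groups did not overlap, and it rose (edgeR log2 fold change 1.95, SE 0.54, adjusted p = 0.0218). Cdsn, on chromosome 17, encodes corneodesmosin, a glycoprotein of the junctions between cornified cells. Cdsn had 4.88, 47 and 7.66 CPM in Ki-67-KO libraries, against 2.43, 3.6 and 3.39 CPM in wild type libraries. Replicate 2 was 9.64 times replicate 1 here, the steepest step among these 5 genes, and the gene rose (edgeR log2 fold change 2.66, SE 0.77, adjusted p = 0.0267).

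Krtdap and Sbsn, neighbours on chromosome 7, encode small secreted proteins of differentiating keratinocytes. Krtdap reached 21.1, 93.5 and 18.1 CPM in Ki-67-KO libraries, against 6.57, 10.9 and 7 CPM in wild type libraries, with no overlap (edgeR log2 fold change 2.44, SE 0.60, adjusted p = 0.014). Sbsn, the gene of suprabasin, had 6.12, 35.2 and 5.59 CPM in Ki-67-KO libraries, against 4.17, 4.74 and 4.54 CPM in wild type libraries. Although its groups did not overlap either, it missed the threshold (edgeR log2 fold change 1.80, SE 0.64, adjusted p = 0.0579), and the values of replicates 1 and 3 lay close to the wild type ones. Dmkn, which lies between them and encodes the secreted protein dermokine, showed the same shape, at 23.8, 121 and 17.4 CPM in Ki-67-KO libraries, against 6.27, 11.5 and 7.8 CPM in wild type libraries (edgeR log2 fold change 2.66, SE 0.68, adjusted p = 0.0166).

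The Sprr genes encode short proline-rich proteins that bridge loricrin and involucrin, and several are known to be induced by wounding and inflammation. All 8 tested Sprr genes rose, where 17.6% of all tested genes were higher. They also rose without Ki-67-KO replicate 2, where 21.1% were higher. A gene could enter the test through the knockout libraries alone, so these counts do not describe the Sprr genes under the filter. Sprr1a was the most abundant, at 9.5, 114 and 22.1 CPM in Ki-67-KO libraries, against 5.02, 6.09 and 6.63 CPM in wild type libraries (edgeR log2 fold change 3.03, SE 0.79, adjusted p = 0.0173). Sprr1b followed at 5.89, 78.4 and 6.84 CPM in Ki-67-KO libraries, against 2.76, 3.6 and 3.45 CPM in wild type libraries (edgeR log2 fold change 3.21, SE 0.94, adjusted p = 0.0277). Replicate 2 was 12 to 13.3 times replicate 1 for this pair, while replicate 3 exceeded replicate 1 for both.

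The Sprr2 subfamily, 10 of the 47 genes, held the 5 largest fold changes among the 40 of these genes that were tested. Sprr2d stood at 2.54, 21.8 and 2.54 CPM in Ki-67-KO libraries, against 0.442, 0.556 and 0.588 CPM in wild type libraries (edgeR log2 fold change 4.07, SE 0.89, adjusted p = 0.00849). Sprr2h had 1.4, 15.3 and 2.02 CPM in Ki-67-KO libraries, against 0.359, 0.45 and 0.534 CPM in wild type libraries (edgeR log2 fold change 3.79, SE 0.91, adjusted p = 0.0127). In both, replicates 1 and 3 lay above every wild type library and far below replicate 2. Sprr2i, with the largest fold change, had 0.651, 7.39 and 0.817 CPM in Ki-67-KO libraries, against 0.0276, 0.053 and 0.187 CPM in wild type libraries (edgeR log2 fold change 4.98, SE 1.15, adjusted p = 0.0105), but its 3 wild type values rest on 10 read pairs in all, so the size of the ratio is imprecise.

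Sprr2f was counted at 0.683, 9.16 and 0.774 CPM in Ki-67-KO libraries, against 0.193, 0.053 and 0.267 CPM in wild type libraries (edgeR log2 fold change 4.34, SE 1.13, adjusted p = 0.0174). Sprr2g, annotated as a polymorphic pseudogene, showed 0.651, 8.3 and 0.817 CPM in Ki-67-KO libraries, against 0.193, 0.0794 and 0.374 CPM in wild type libraries (edgeR log2 fold change 3.89, SE 1.07, adjusted p = 0.0216). Sprr2a3 had 2.44, 7.39 and 1.98 CPM in Ki-67-KO libraries, against 0.469, 0.238 and 0.695 CPM in wild type libraries (edgeR log2 fold change 3.06, SE 0.58, adjusted p = 0.00452). In all of them the groups were apart, and in Sprr2a3 replicate 2 was only 3.03 times replicate 1. Of the 50-base windows of Sprr2a3 transcripts, 61.1% also occur in other genes, above all Sprr2a1 and Sprr2a2, whose own windows are shared to 96.3% and 96.5%. Pairs that map to several places are not in these counts, so the 3 Sprr2a levels are partial.

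The Sprr genes below the filter were counted as follows. Sprr2e had 6, 92 and 10 read pairs in Ki-67-KO libraries, against 4, 8 and 6 read pairs in wild type libraries, and Sprr4 7, 46 and 9 read pairs in Ki-67-KO libraries, against 9, 6 and 2 read pairs in wild type libraries. For these, replicate 2 was far above the rest and replicates 1 and 3 were within or near the wild type range. Sprr2j-ps, a pseudogene by its symbol but annotated as protein-coding, had 0, 29 and 0 read pairs in Ki-67-KO libraries, against 0, 0 and 0 read pairs in wild type libraries. Seen in replicate 2 alone, its 29 pairs have an exact 95% Poisson interval of 19.4 to 41.6, and a count of 0 has one of 0 to 3.69 pairs (counting error only). Sprr2b had 10, 10 and 1 read pairs in Ki-67-KO libraries, against 2, 0 and 0 read pairs in wild type libraries, and Sprr2k 3, 2 and 5 read pairs in Ki-67-KO libraries, against 0, 1 and 2 read pairs in wild type libraries. These last counts are too small to order the libraries.

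RefSeq promoters of GRCm38.p6 were found for 44 of the 47 genes (46 promoters, 300 bases each), and the Sprr promoters resemble one another. The AP-1 motif was present, on either strand, in 9 of 11 Sprr promoters, against 7.81% of all 32851 promoters of that length. The TATA box was in 9 of 11, against 13.6%. An octamer motif (ATGCAAAT, the site of POU factors) was in 7 of 11, all of them Sprr2 genes, against 1.74% of all promoters and 0 of the other 35 promoters of these genes. Of the 3 other motifs searched on both strands, the Ets motif AGGAAG was in 4 of 11 Sprr promoters (35.4% of all promoters), the KLF motif CCACCC in 4 of 11 (31.5%), and the grainyhead motif AACCGGTT in 0 of the 46 promoters of these genes (0.146%). In the 7 Sprr2 promoters with AP-1, octamer and TATA matches, the order was the same. The examples are Sprr2d (chr3:92338890-92339189, plus strand) and Sprr2i (chr3:92407741-92408040, plus strand), which have the AP-1 match at -193, the octamer at -108 and the TATA box at -29, and Sprr1a (chr3:92485832-92486131, minus strand), the most abundant Sprr gene, with AP-1 matches at -146 and -116, a TATA box at -43 and no octamer. Capitals mark AP-1, octamer (here on the opposite strand) and TATA matches, which do not overlap one another. A match describes the letters only. The RefSeq start of Sprr4, whose window held no AP-1 or TATA match, is the A of an ATG, so that window may not be its promoter. Sprr2a3 has the other Sprr window without these matches. That window ends at 92285353, before the GENCODE start of the gene at 92285417, so it may miss the promoter too.
Sprr2d: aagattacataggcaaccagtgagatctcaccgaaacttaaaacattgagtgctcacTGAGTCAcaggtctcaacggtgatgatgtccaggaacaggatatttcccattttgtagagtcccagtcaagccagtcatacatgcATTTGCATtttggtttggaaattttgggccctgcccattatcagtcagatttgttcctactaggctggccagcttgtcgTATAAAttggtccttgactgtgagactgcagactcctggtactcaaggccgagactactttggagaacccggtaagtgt
Sprr2i: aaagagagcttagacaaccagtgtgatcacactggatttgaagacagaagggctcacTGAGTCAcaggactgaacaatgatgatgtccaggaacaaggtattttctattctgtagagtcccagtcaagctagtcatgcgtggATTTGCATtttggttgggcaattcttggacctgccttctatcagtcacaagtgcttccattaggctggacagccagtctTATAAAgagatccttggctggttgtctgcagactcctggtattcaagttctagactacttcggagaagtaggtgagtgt
Sprr1a: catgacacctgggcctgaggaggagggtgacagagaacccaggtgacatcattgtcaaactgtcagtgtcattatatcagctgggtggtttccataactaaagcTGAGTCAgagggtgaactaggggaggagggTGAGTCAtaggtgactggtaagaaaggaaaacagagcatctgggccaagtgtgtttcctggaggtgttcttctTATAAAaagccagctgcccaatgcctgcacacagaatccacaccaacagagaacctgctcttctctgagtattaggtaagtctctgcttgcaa

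Lce genes encode late envelope proteins, added in the uppermost living layers. Of 19 tested, 15 rose, and 8 did so without Ki-67-KO replicate 2. Over all tested genes 17.6% were higher, and 21.1% without replicate 2. The highest of the Lce1 subfamily in replicate 2 was Lce1a1, at 3.55, 17.4 and 1.85 CPM in Ki-67-KO libraries, against 0.718, 1.46 and 1.07 CPM in wild type libraries (edgeR log2 fold change 2.81, SE 0.76, adjusted p = 0.0208). Lce1b had 2.34, 13.2 and 1.68 CPM in Ki-67-KO libraries, against 0.387, 0.768 and 0.454 CPM in wild type libraries (edgeR log2 fold change 3.41, SE 0.79, adjusted p = 0.0109). Lce1m reached 2.99, 6.12 and 1.59 CPM in Ki-67-KO libraries, against 0.525, 0.927 and 0.561 CPM in wild type libraries (edgeR log2 fold change 2.40, SE 0.49, adjusted p = 0.00611). The groups were apart for each of these, and Lce1m had both the smallest step in replicate 2 (2.05 times replicate 1) and the smallest adjusted p of the family.

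Next in line came Lce1a2, at 1.79, 6.44 and 1.12 CPM in Ki-67-KO libraries, against 0.0828, 0.689 and 0.374 CPM in wild type libraries. Lce1c had 1.4, 10.8 and 1.03 CPM in Ki-67-KO libraries, against 0.331, 0.9 and 0.267 CPM in wild type libraries. Lce1d had 1.63, 10.8 and 1.72 CPM in Ki-67-KO libraries, against 0.276, 0.9 and 0.561 CPM in wild type libraries. For these 3, replicate 2 was far above replicates 1 and 3, which still exceeded each wild type value, and all 3 rose (edgeR log2 fold changes 3.01, 3.13 and 3.01, adjusted p = 0.0174, 0.0293 and 0.0187). Lce1e was at 1.04, 6.91 and 0.688 CPM in Ki-67-KO libraries, against 0.414, 0.556 and 0.401 CPM in wild type libraries. Lce1i was at 1.56, 6.95 and 1.29 CPM in Ki-67-KO libraries, against 0.58, 0.768 and 0.748 CPM in wild type libraries. Lce1l was at 0.683, 5.57 and 0.43 CPM in Ki-67-KO libraries, against 0.331, 0.212 and 0.187 CPM in wild type libraries. The groups did not overlap here either, and all 3 rose (edgeR log2 fold changes 2.64, 2.22 and 3.17, adjusted p = 0.0346, 0.0243 and 0.0296).

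In the remaining Lce1 genes the wild type range reached the lower Ki-67-KO libraries or came close to it. Lce1f had 2.08, 13.3 and 1.08 CPM in Ki-67-KO libraries, against 0.635, 1.48 and 0.748 CPM in wild type libraries, and rose narrowly (edgeR adjusted p = 0.048). Lce1j had 0.943, 4.03 and 0.344 CPM in Ki-67-KO libraries, against 0.248, 0.45 and 0.294 CPM in wild type libraries, and also passed (edgeR adjusted p = 0.0436). In both, replicate 3 lay below wild type replicate 2. Lce1g had 1.53, 9.52 and 0.688 CPM in Ki-67-KO libraries, against 0.248, 1.22 and 0.454 CPM in wild type libraries. Lce1h had 0.455, 3.71 and 0.387 CPM in Ki-67-KO libraries, against 0.138, 0.344 and 0.321 CPM in wild type libraries. Lce1k had 0.26, 2.61 and 0.43 CPM in Ki-67-KO libraries, against 0.0276, 0.344 and 0.187 CPM in wild type libraries. None of the last 3 passed (edgeR adjusted p = 0.0592, 0.0572 and 0.0742), and of them only Lce1h had groups apart. Lce6a, which lies between Ivl and the Lce1 genes, had 0.618, 2.92 and 0.301 CPM in Ki-67-KO libraries, against 0.304, 0.397 and 0.187 CPM in wild type libraries, and did not pass (edgeR adjusted p = 0.0661).

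Lce3 genes were scarcer, and all 6 had each Ki-67-KO library above each wild type library. Lce3c, the most abundant, had 1.2, 9.44 and 0.559 CPM in Ki-67-KO libraries, against 0.276, 0.344 and 0.534 CPM in wild type libraries (edgeR log2 fold change 3.26, SE 0.97, adjusted p = 0.0293). Lce3d had 0.651, 5.1 and 0.473 CPM in Ki-67-KO libraries, against 0.248, 0.371 and 0.294 CPM in wild type libraries (edgeR log2 fold change 2.75, SE 0.87, adjusted p = 0.0385). Lce3f had 0.586, 3.04 and 0.516 CPM in Ki-67-KO libraries, against 0.138, 0.106 and 0.107 CPM in wild type libraries (edgeR log2 fold change 3.52, SE 0.79, adjusted p = 0.0094). In Lce3f the wild type libraries lay close together, at 0.106 to 0.138 CPM. Lce3b had 0.358, 1.82 and 0.344 CPM in Ki-67-KO libraries, against 0.0828, 0.0265 and 0.0802 CPM in wild type libraries (edgeR log2 fold change 3.65, SE 0.86, adjusted p = 0.0115). Below the filter, Lce3a had 3, 28 and 7 read pairs in Ki-67-KO libraries, against 2, 1 and 2 read pairs in wild type libraries, and Lce3e 11, 73 and 5 read pairs in Ki-67-KO libraries, against 5, 1 and 7 read pairs in wild type libraries. Replicate 2 held most of the pairs of both.

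Near-identical copies limit the Lce values. Between 9.12% and 27.1% of the 50-base windows of Lce1a1 to Lce1l, and between 12.1% and 49.3% of those of the Lce3 genes, also occur in other genes. Lce1m and Lce6a share none. Of those 2, Lce1m rose and Lce6a did not pass. No Lce promoter of 20 held the AP-1 motif, and 4 held the letters TATAAA on either strand, those of Lce1d and Lce1m at -30 and -29 and those of Lce6a and Lce3e far upstream, at -218 and -243. The promoter of Lce1a1 (chr3:92648258-92648557, minus strand), the most abundant Lce gene in replicate 2, is shown as an example with no AP-1, octamer or TATA match.
Lce1a1: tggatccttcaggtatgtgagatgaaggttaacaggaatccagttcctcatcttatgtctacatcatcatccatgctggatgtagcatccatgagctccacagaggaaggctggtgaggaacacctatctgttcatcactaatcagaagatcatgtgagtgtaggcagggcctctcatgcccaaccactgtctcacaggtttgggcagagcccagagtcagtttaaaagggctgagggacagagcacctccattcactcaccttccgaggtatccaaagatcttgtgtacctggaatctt

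The S100-fused genes fell into 2 patterns. Flg, the gene of filaggrin, which bundles keratin and is later degraded into the skin's natural moisturizer, was at 17.2, 58.6 and 6.32 CPM in Ki-67-KO libraries, against 3.04, 6.65 and 4.52 CPM in wild type libraries (edgeR log2 fold change 2.53, SE 0.70, adjusted p = 0.022). Replicate 3 lay just under wild type replicate 2, so the groups overlapped. Flg2, the related filaggrin-2 gene, had 3.55, 6.2 and 1.51 CPM in Ki-67-KO libraries, against 0.883, 1.03 and 0.828 CPM in wild type libraries, without overlap (edgeR log2 fold change 2.03, SE 0.46, adjusted p = 0.00924). Rptn encodes repetin and was at 7.55, 25.9 and 4.43 CPM in Ki-67-KO libraries, against 1.35, 1.35 and 1.6 CPM in wild type libraries. Wild type values lay close together there, all Ki-67-KO values were well above them, and Rptn had the largest fold change of the family (edgeR log2 fold change 3.13, SE 0.60, adjusted p = 0.00474).

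Hrnr, the gene of hornerin, had 4.85, 12.6 and 2.37 CPM in Ki-67-KO libraries, against 2.02, 3.05 and 1.68 CPM in wild type libraries. Its replicate 3 lay below wild type replicate 2, and it narrowly missed the threshold (edgeR log2 fold change 1.56, SE 0.54, adjusted p = 0.0504). Flg, Flg2 and Hrnr consist largely of tandem repeats: 79.2%, 65.3% and 69.1% of the 50-base windows of their longest transcripts occur more than once in the same transcript. Their levels are therefore partial in every library.

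Tchh and Crnn went the other way in replicate 2. Tchh encodes trichohyalin, which hardens the inner root sheath of the hair follicle, and Crnn encodes cornulin, known from squamous epithelia. Tchh had 23.7, 3.48 and 56.5 CPM in Ki-67-KO libraries, against 12.2, 16.7 and 17.2 CPM in wild type libraries. Crnn had 0.878, 0.198 and 2.93 CPM in Ki-67-KO libraries, against 0.414, 0.583 and 0.534 CPM in wild type libraries. For both, replicate 3 was the highest and replicate 2 the lowest of all 6 libraries, and replicate 1 lay above each wild type library. Replicate 3 was the highest library for only 3 of the 47 genes, against 27.4% of all genes, the other being Sprr2k with its 13 pairs in all.

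With all libraries, Tchh and Crnn did not pass (edgeR log2 fold change 0.86, SE 0.70, adjusted p = 0.364 for Tchh and log2 fold change 1.36, SE 0.75, adjusted p = 0.185 for Crnn). Without replicate 2 both were called higher (edgeR log2 fold change 1.33, adjusted p = 0.00676 for Tchh and log2 fold change 1.81, adjusted p = 0.0142 for Crnn). Leaving out Ki-67-KO replicate 3 instead turned the direction of Tchh, to a log2 fold change of -0.18. The call for Tchh and its sign thus each depended on a single library.

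Most keratins of the hair follicle list moved with this pair. Among the hair follicle markers, 15 were keratins of the hair shaft and inner root sheath, picked out after their values were seen. Their sum was 42.2, 6 and 115 CPM in Ki-67-KO libraries, against 26.6, 39.5 and 33 CPM in wild type libraries. Replicate 3 was the highest library for 15 of 15 (27.4% of all genes), and the sum in replicate 2 lay below each wild type sum. In replicate 2, Krt28, Krt31, Krt33b and Krt34 stood at 0.0395 CPM, under the 0.12 CPM that 3 read pairs make there. Krt28, for example, had 3.03, 0.0395 and 8.95 CPM in Ki-67-KO libraries, against 1.66, 2.17 and 2.16 CPM in wild type libraries. The full list of 19 hair markers (17 tested, 1 higher, 0 lower, and 11 higher and 1 lower without replicate 2) summed to 121, 106 and 205 CPM in Ki-67-KO libraries, against 115, 130 and 131 CPM in wild type libraries. Over all tested genes 17.6% were higher with all libraries and 21.1% without replicate 2. Gata3, which other epithelia express too, made up 65.9, 86 and 77.4 CPM of the sum in Ki-67-KO libraries, against 85, 83.7 and 95 CPM in wild type libraries. Krt79, left out of the 15, went the other way and was the 1 gene called higher. It had 10.5, 13.5 and 8 CPM in Ki-67-KO libraries, against 2.71, 5.01 and 1.82 CPM in wild type libraries. Krt75, also left out, followed the 15. The part of hair follicles in the values of Tchh and Crnn was not tested.

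**Figure D3:**
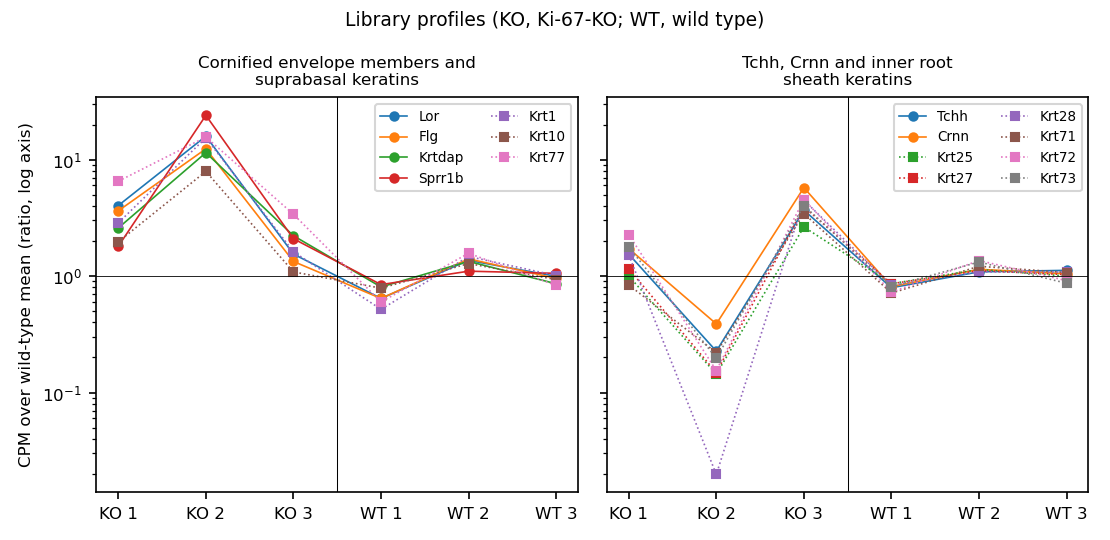
Level in each library over the wild type mean (ratio, log axis) for 4 envelope genes with 3 suprabasal keratins (left) and for Tchh and Crnn with 6 inner root sheath keratins (right); circles with solid lines are genes of the envelope set, squares with dotted lines are keratins. On the left all genes are highest in Ki-67-KO replicate 2, and on the right all are highest in Ki-67-KO replicate 3 and lowest in replicate 2.

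The RefSeq windows of these 2 genes differ in their letters. Crnn (chr3:93144539-93144838, plus strand) holds an AP-1 match at -96 and a TATA box at -29, as 17 and 21 of the 46 promoters do, and Tchh (chr3:93442080-93442379, plus strand) holds none of the 3 motifs. The RefSeq start of Tchh is the A of an ATG, so its window may lie at a coding start. Missing motifs there do not describe the Tchh promoter. Both windows are shown because their genes share a profile that the Sprr and Lce genes do not have.
Crnn: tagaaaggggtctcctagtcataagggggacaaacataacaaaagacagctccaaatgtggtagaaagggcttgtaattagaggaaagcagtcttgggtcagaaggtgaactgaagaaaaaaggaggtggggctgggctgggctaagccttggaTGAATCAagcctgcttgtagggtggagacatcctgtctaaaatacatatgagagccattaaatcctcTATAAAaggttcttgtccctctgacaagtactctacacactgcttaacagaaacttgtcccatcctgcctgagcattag
Tchh: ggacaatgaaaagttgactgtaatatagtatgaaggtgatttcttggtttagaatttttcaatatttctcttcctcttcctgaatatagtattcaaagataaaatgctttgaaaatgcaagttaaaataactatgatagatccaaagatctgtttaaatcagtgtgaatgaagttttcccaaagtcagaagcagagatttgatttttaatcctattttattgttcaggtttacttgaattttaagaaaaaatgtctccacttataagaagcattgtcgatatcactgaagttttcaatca

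Transglutaminases make the crosslinks, and both rose. Tgm1, on chromosome 14, encodes the membrane-bound enzyme of the epidermis and had 13.1, 22.1 and 12.2 CPM in Ki-67-KO libraries, against 5.91, 6.75 and 5.56 CPM in wild type libraries. The groups were far apart relative to their spread, replicate 2 was only 1.68 times replicate 1, and Tgm1 had the smallest adjusted p of the tested genes (edgeR log2 fold change 1.38, SE 0.23, adjusted p = 0.00244). Without replicate 2 the call held (edgeR log2 fold change 1.02, adjusted p = 0.000623). Tgm3, on chromosome 2, encodes a soluble enzyme of epidermis and hair and had 1.11, 9.72 and 1.46 CPM in Ki-67-KO libraries, against 0.331, 0.927 and 0.641 CPM in wild type libraries. It rose with all libraries (edgeR log2 fold change 2.68, SE 0.83, adjusted p = 0.0342) and did not pass without replicate 2 (edgeR log2 fold change 0.96, adjusted p = 0.0871).

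Fewer genes passed when Ki-67-KO replicate 2 was left out. Without it, 26 of the 40 tested genes were higher and 0 lower, against 21.1% of all genes called higher in that fit, and log2 fold changes ran from 0.34 to 2.93 with a median of 1.26 (0.04 over all genes). By family, that was 8 of 8 Sprr, 6 of 14 Lce1, 2 of 4 Lce3, 5 of 6 S100-fused, 4 of 5 other envelope genes and 1 of 2 transglutaminases. The 14 that did not pass were Tgm3, Sbsn, Hrnr, Lce6a, Lce1c, Lce1e, Lce1f, Lce1g, Lce1h, Lce1j, Lce1k, Lce1l, Lce3c and Lce3d. All 14 still had positive log2 fold changes.

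**Figure D4:**
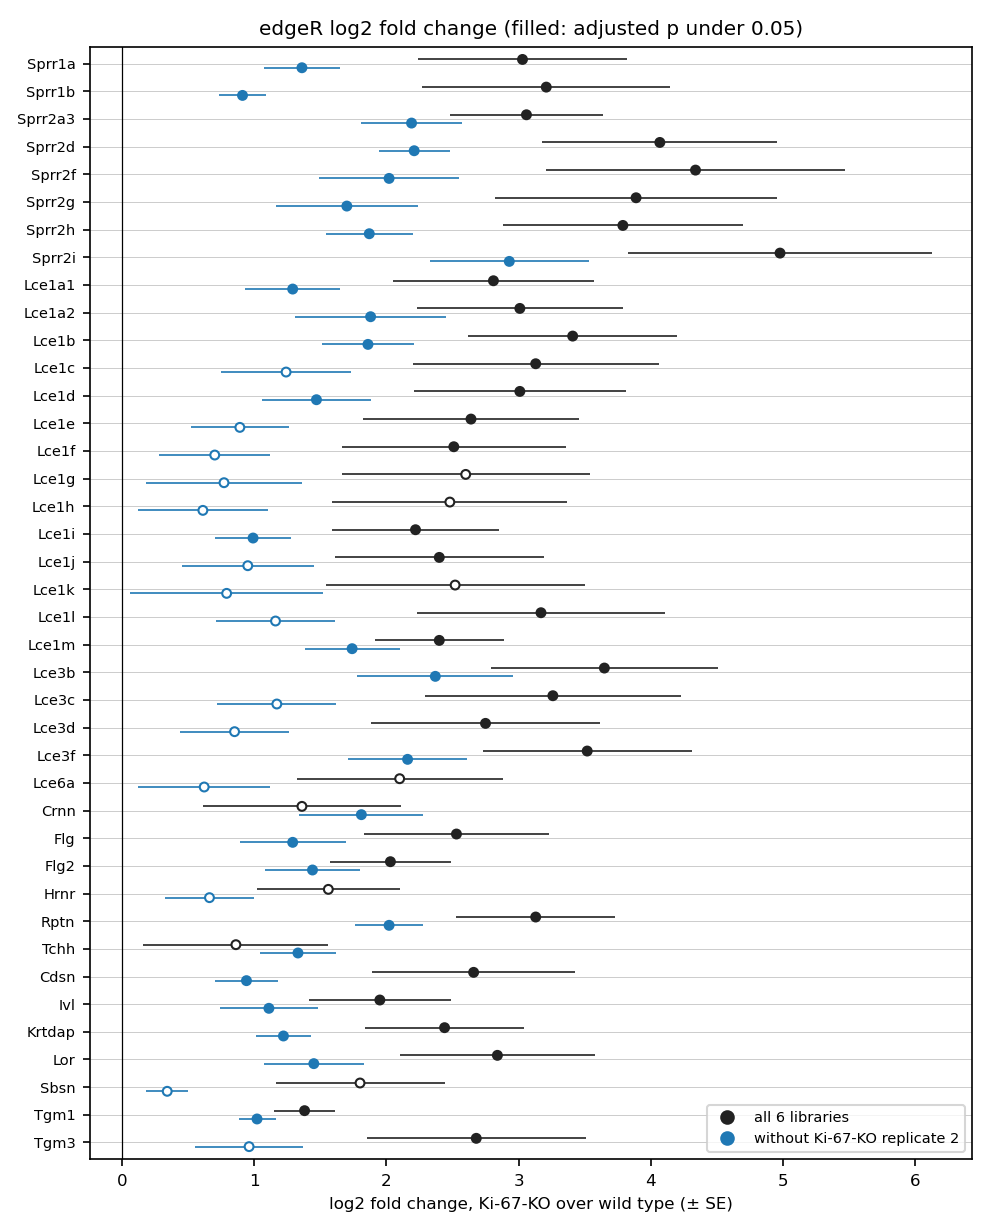
edgeR log2 fold change of the 40 tested genes, Ki-67-KO over wild type, with SE, from all 6 libraries (black) and without Ki-67-KO replicate 2 (blue); filled points have an adjusted p under 0.05. All points lie right of 0; without replicate 2 the fold changes are smaller for every gene except Crnn and Tchh.

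Per base of transcript, a few genes dominated. In TPM (counts scaled by annotated exon length and library total), Krtdap had 87.1, 395 and 79.4 TPM in Ki-67-KO libraries, against 27.3, 47.2 and 30.1 TPM in wild type libraries. Sprr1a had 33, 405 and 81.5 TPM in Ki-67-KO libraries, against 17.6, 22.1 and 24 TPM in wild type libraries. Lor had 38.7, 156 and 15.8 TPM in Ki-67-KO libraries, against 6.21, 13.7 and 9.94 TPM in wild type libraries. Krtdap was the most abundant of the set in each wild type library and in Ki-67-KO replicate 1, and Sprr1a was slightly above it in Ki-67-KO replicates 2 and 3. The 47 genes together reached 2290 TPM in Ki-67-KO replicate 2, against at most 183 TPM in a wild type library.

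On chromosome 3 the genes span 1369 kb, from Lor to Tchh (GRCm38 chr3:92080271-93449077), and 42 of the 47 lie there. The others are Cdsn (chr17:35552128-35557180), Tgm1 (chr14:55700009-55713926), Tgm3 (chr2:130012349-130050399), Sbsn (chr7:30751471-30756134) and Krtdap (chr7:30787896-30791097). High ratios in replicate 2 ran through the whole interval, with the largest among the Sprr2 genes, while Crnn and Tchh in its S100-fused stretch stood out below 1. The interval holds 17 other genes with at least 10 read pairs, of which 11 were tested, 6 rose and 0 fell. Over all tested genes 17.6% were higher and 18.4% lower. Replicate 2 was the highest library for 9 of the 17, against 21.6% of all genes. Those 9 were all tested, and the 6 not tested were highest in Ki-67-KO replicate 1 or 3. Replicate 2 was at least 4 times each other library for 3 of the 17 (Kprp, 2310050C09Rik and 2310046K23Rik), against 0.432% of all genes. Kprp, the gene of keratinocyte proline-rich protein, had 1.92, 14.1 and 1.33 CPM in Ki-67-KO libraries, against 0.359, 0.742 and 0.534 CPM in wild type libraries (edgeR log2 fold change 3.40, SE 0.88, adjusted p = 0.0174). Crct1 had 7.22, 28.7 and 6.45 CPM in Ki-67-KO libraries, against 2.71, 3.76 and 3.87 CPM in wild type libraries (edgeR log2 fold change 2.03, SE 0.54, adjusted p = 0.0193). The unnamed genes 2310046K23Rik, 2310050C09Rik and 2210017I01Rik also rose, with log2 fold changes of 3.59, 3.18 and 2.70 (edgeR adjusted p = 0.0137, 0.0192 and 0.00763), and had their highest level in replicate 2. Rplp0-ps1, a pseudogene, rose with 4.85, 11.2 and 10.1 CPM in Ki-67-KO libraries, against 4.86, 4.63 and 4.54 CPM in wild type libraries (edgeR log2 fold change 0.89, SE 0.28, adjusted p = 0.0372), where replicates 2 and 3 were close. Gm4202, Gm5278, Gm9774 and Gm35439 did not pass, with log2 fold changes of 0.07, 0.39, 0.44 and 1.02. Prr9 was low in replicate 2, as Tchh was, with 18, 2.88 and 23.9 CPM in Ki-67-KO libraries, against 6.76, 9.53 and 8.39 CPM in wild type libraries, and did not pass (edgeR log2 fold change 0.86, SE 0.57, adjusted p = 0.267). These neighbours were named after their values were seen.

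**Figure D5:**
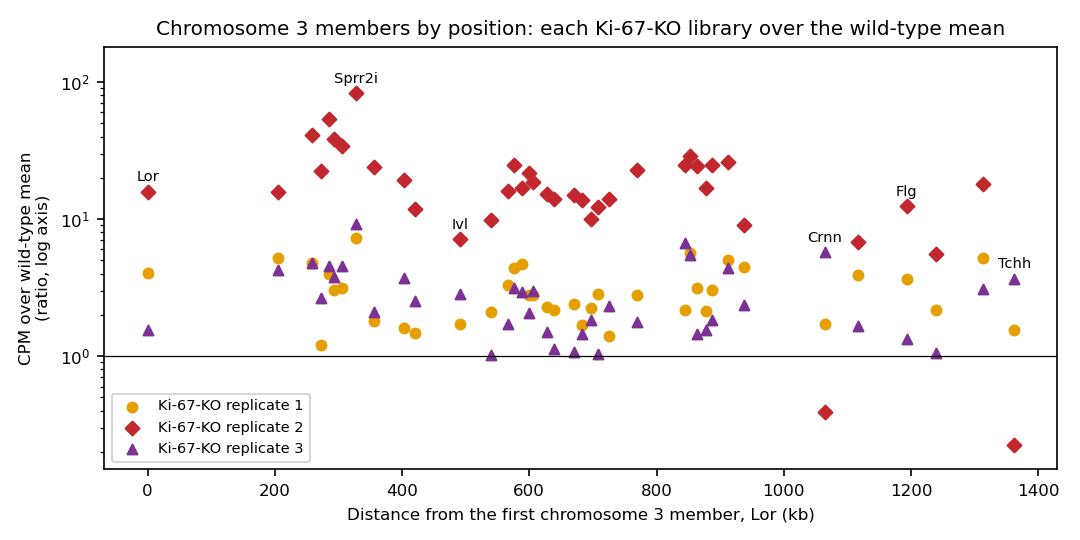
Ratio of each Ki-67-KO library to the wild type mean (log axis) for the genes on chromosome 3 with more than 3 wild type read pairs, against distance in kb from Lor. Replicate 2 (red diamonds) lies above replicates 1 and 3 along the interval, with Crnn and Tchh at its far end as the exceptions.

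Most of the other enzymes that process the envelope and its lipids rose as well. Of 26 enzymes and inhibitors, 24 were tested, 19 rose and 1 fell, where 17.6% of all tested genes were higher and 18.4% lower. Their median log2 fold change was 1.89 (0.05 over all genes). The smallest p-values belonged to Serpinb5 (maspin), St14 (matriptase, a protease that activates others in the granular layer), Sult2b1 (cholesterol sulfotransferase) and Klk8 (a kallikrein protease). Serpinb5 had 61.4, 68.4 and 60.8 CPM in Ki-67-KO libraries, against 6.71, 7.47 and 9.22 CPM in wild type libraries (edgeR log2 fold change 3.02, SE 0.14, adjusted p = 3.11e-06). St14 had 286, 329 and 310 CPM in Ki-67-KO libraries, against 89.1, 93.2 and 95.9 CPM in wild type libraries (edgeR log2 fold change 1.73, SE 0.09, adjusted p = 5.91e-06). Sult2b1 had 32.8, 44.2 and 35.3 CPM in Ki-67-KO libraries, against 6.05, 7.57 and 8.47 CPM in wild type libraries (edgeR log2 fold change 2.34, SE 0.17, adjusted p = 2.62e-05). Klk8 had 22.6, 24.4 and 16.1 CPM in Ki-67-KO libraries, against 5.22, 3.63 and 4.57 CPM in wild type libraries (edgeR log2 fold change 2.23, SE 0.20, adjusted p = 8.72e-05). In these 4 the 3 Ki-67-KO libraries were close together, but a choice by smallest p favors such genes. Over the whole list replicate 2 was the highest library for 20 of 26, against 21.6% of all genes. For 8 it was at least 4 times as high as each other library (Casp14, Asprv1, Alox12b, Aloxe3, Abca12, Sdr9c7, Cyp4f39 and Klk5), against 0.432% of all genes. Casp14, the caspase of cornifying cells, had 0.651, 11.5 and 0.99 CPM in Ki-67-KO libraries, against 0.276, 0.265 and 0.401 CPM in wild type libraries (edgeR log2 fold change 3.78, SE 1.07, adjusted p = 0.0244). Without replicate 2, 16 rose and 1 fell, against 21.1% of all genes each way. Not called were Aloxe3, Prss8, Blmh and Slc27a4, and Alox12b and Cyp4f39 were too low to test.

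Partners of the envelope, that is desmosomal proteins, suprabasal keratins and other precursors, numbered 20, all tested. Of these, 16 rose and 1 fell, where 17.6% of all tested genes were higher and 18.4% lower. Without replicate 2, 13 rose and 2 fell, against 21.1% of all genes each way. Sfn, the keratinocyte 14-3-3 protein stratifin, had 224, 264 and 206 CPM in Ki-67-KO libraries, against 37.7, 37.9 and 35.5 CPM in wild type libraries (edgeR log2 fold change 2.64, SE 0.11, adjusted p = 2.25e-06). Pkp1, the desmosomal plakophilin-1, had 73.9, 126 and 67.8 CPM in Ki-67-KO libraries, against 4.31, 7.55 and 4.84 CPM in wild type libraries (edgeR log2 fold change 4.00, SE 0.30, adjusted p = 3.38e-05). Perp and Dsp (desmoplakin) rose by less, with log2 fold changes of 1.56 and 1.78 (edgeR adjusted p = 7.13e-05 and 8.73e-05). Ppl, the gene of periplakin, a scaffold protein of the envelope, fell, with 75, 90.3 and 74 CPM in Ki-67-KO libraries, against 100, 120 and 113 CPM in wild type libraries (edgeR log2 fold change -0.48, SE 0.11, adjusted p = 0.0107). Evpl, its partner envoplakin, had 6.21, 24.8 and 11.7 CPM in Ki-67-KO libraries, against 17.9, 19.5 and 19.9 CPM in wild type libraries, did not pass, and was called lower without replicate 2 (edgeR log2 fold change -1.15, adjusted p = 0.00343). Serpinb2 and Krt2 were not called. Replicate 2 was the highest library for 16 of the 20 (21.6% of all genes), and at least 4 times each other library for Dsg1b, Stfa1, Krt1 and Krt10 (0.432% of all genes).

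Keratins and adhesion proteins of basal and stressed keratinocytes numbered 14, and 12 rose and 2 fell, with or without replicate 2. Over all tested genes 17.6% were higher and 18.4% lower, and 21.1% each way without replicate 2. Krt14, the basal keratin, had 815, 1009 and 630 CPM in Ki-67-KO libraries, against 32.9, 53.8 and 39 CPM in wild type libraries (edgeR log2 fold change 4.29, SE 0.24, adjusted p = 7.51e-06). Trp63, the p63 regulator of stratified epithelia, had 18.9, 18.4 and 15.1 CPM in Ki-67-KO libraries, against 2.1, 2.15 and 2.14 CPM in wild type libraries (edgeR log2 fold change 3.04, SE 0.15, adjusted p = 3.97e-06). Krt15 and Itgb4 rose with log2 fold changes of 2.63 and 1.03 (edgeR adjusted p = 0.000129 and 0.000891). Replicate 2 was the highest library for 10 of the 14 (21.6% of all genes), not for Trp63 and Krt15. It was at least 4 times each other library for Krt5, Krt6a, Krt6b and Krt16 (0.432% of all genes). Krt6a and Krt16, keratins of wounded or hyperproliferative epidermis picked after their values were seen, were far higher in replicate 2 than in replicates 1 and 3. Krt6a had 14, 104 and 13.6 CPM in Ki-67-KO libraries, against 3.95, 8.85 and 5.24 CPM in wild type libraries. Krt16 had 32.3, 180 and 22.5 CPM in Ki-67-KO libraries, against 6.1, 10.5 and 10.6 CPM in wild type libraries. Both rose (edgeR log2 fold changes 2.86 and 3.11, adjusted p = 0.0217 and 0.0119). Dst and Itga6, both of hemidesmosomes, fell, with log2 fold changes of -0.87 and -0.37 (edgeR adjusted p = 0.00351 and 0.0106).

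Of 27 regulators of epidermal differentiation, 16 rose and 3 fell, where 17.6% of all tested genes were higher and 18.4% lower. Grhl2, a grainyhead factor of epithelia, had 51.9, 50.3 and 51.5 CPM in Ki-67-KO libraries, against 19.7, 20.2 and 20.6 CPM in wild type libraries (edgeR log2 fold change 1.35, SE 0.09, adjusted p = 1.42e-05). Ovol2, a zinc finger factor that keeps cells epithelial, had 3.9, 5.21 and 4.95 CPM in Ki-67-KO libraries, against 0.193, 0.318 and 0.267 CPM in wild type libraries (edgeR log2 fold change 4.15, SE 0.27, adjusted p = 1.84e-05). Vdr (vitamin D receptor) and Notch3 rose with log2 fold changes of 1.74 and 2.59 (edgeR adjusted p = 1.84e-05 and 2.44e-05). These 4 too were named by smallest p, which favors genes with little spread. Replicate 2 was the highest library for 20 of the 27 (21.6% of all genes). For 1, Grhl3, it was at least 4 times as high as each other library (0.432% of all genes). Grhl3, a grainyhead factor needed for the skin barrier in mice, had 0.455, 7.43 and 0.602 CPM in Ki-67-KO libraries, against 0.276, 0.53 and 0.481 CPM in wild type libraries and did not pass (edgeR log2 fold change 2.70, SE 1.00, adjusted p = 0.0638). Among the genes that fell were Maf, a factor of late differentiation in human keratinocytes, and Nfe2l2, with log2 fold changes of -1.42 and -0.92 (edgeR adjusted p = 0.000175 and 0.000128). Without replicate 2, 16 rose and 7 fell, the additions being Klf4, Gata3, Cebpa and Hopx, and 21.1% of all genes were lower in that fit, so the number that fell is near the share over all genes. Klf4, needed for the skin barrier in mice, had 34, 62.7 and 31.9 CPM in Ki-67-KO libraries, against 51.5, 52.5 and 54.7 CPM in wild type libraries, and its call therefore depended on that library.

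The S100 genes that flank the complex on chromosome 3 moved in both directions. Of 12 tested, S100a14, S100a16, S100a11 and S100a9 rose, and S100a7a, S100a6 and S100a4 fell (6 rose and 3 fell without replicate 2), where 17.6% of all tested genes were higher and 18.4% lower. The number that fell is near that share. S100a14 had the largest change, with 253, 146 and 135 CPM in Ki-67-KO libraries, against 6.85, 7.84 and 6.52 CPM in wild type libraries (edgeR log2 fold change 4.65, SE 0.26, adjusted p = 7.51e-06). S100a16, S100a11 and S100a7a changed by log2 values of 0.92, 0.42 and -0.90 (edgeR adjusted p = 0.000206, 0.00738 and 0.0092). S100a14 was highest in replicate 1, not replicate 2. Not called were S100a1, S100a3, S100a8, S100a10 and S100a13, and S100a5 was too low to test.

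Markers of other cells moved with the envelope genes, and their part in the results was not tested. The counts called, here and in the next paragraph, stand beside 17.6% of all tested genes higher and 18.4% lower. Suprabasal epidermal markers outside the 47 genes, which the lists of enzymes and partners also hold (9 genes, 8 higher), summed to 133, 552 and 80.5 CPM in Ki-67-KO libraries, against 39.3, 71.2 and 50 CPM in wild type libraries. Krt1, their defining keratin, had 34, 183 and 19.2 CPM in Ki-67-KO libraries, against 6.16, 17.5 and 12 CPM in wild type libraries. Basal markers (6 of 6 higher) summed to 1430, 2004 and 1368 CPM in Ki-67-KO libraries, against 359, 416 and 406 CPM in wild type libraries. All 6 are also in the list of basal and stressed keratinocytes, whose Dst and Itga6, not among the 6, fell. Adipocyte markers (8 of 8 higher) summed to 340, 942 and 427 CPM in Ki-67-KO libraries, against 136, 89.3 and 94.1 CPM in wild type libraries. All 3 lists were highest in replicate 2, as the envelope genes were. The share of unmapped pairs, high in Ki-67-KO replicates 2 and 3, was not tested as a part of the results either.

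Luminal markers (7 of 8 higher) summed to 6384, 6168 and 5928 CPM in Ki-67-KO libraries, against 2899, 2980 and 2874 CPM in wild type libraries, with replicate 2 in the middle. Oral and esophageal squamous markers (4 of 4 tested higher) summed to 12.7, 14.3 and 11.7 CPM in Ki-67-KO libraries, against 1.21, 1.67 and 0.668 CPM in wild type libraries. Sebaceous markers (1 of 4 tested higher) summed to 63.8, 110 and 40 CPM in Ki-67-KO libraries, against 63.1, 64.9 and 61.9 CPM in wild type libraries. Fabp5, not called, made up 58.6, 103 and 32.1 CPM of this in Ki-67-KO libraries, against 59.1, 60.3 and 58.4 CPM in wild type libraries. Muscle markers (8 of 9 tested higher) summed to 61.7, 74.3 and 78.4 CPM in Ki-67-KO libraries, against 53.4, 45.6 and 44.3 CPM in wild type libraries, with Tnnc2 at 0 in all. Langerhans markers (2 of 4 higher, 1 lower) summed to 979, 921 and 927 CPM in Ki-67-KO libraries, against 140, 140 and 169 CPM in wild type libraries, of which Epcam, also a luminal marker, was 944, 874 and 887 CPM in Ki-67-KO libraries, against 111, 106 and 135 CPM in wild type libraries. Melanocyte markers (1 of 3 tested higher, 1 lower) summed to 9.76, 9.12 and 10.8 CPM in Ki-67-KO libraries, against 16.8, 13.5 and 16.2 CPM in wild type libraries, with Mlana and Tyr at or below 0.0552 CPM everywhere. Most of this sum was Mitf, the 1 called lower, at 7.94, 7.39 and 8.91 CPM in Ki-67-KO libraries, against 15.9, 12.3 and 15.3 CPM in wild type libraries. The 1 called higher was Dct, with 0.618, 0.316 and 0.645 CPM in Ki-67-KO libraries, against 0.11, 0.265 and 0.0802 CPM in wild type libraries.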

How the data were processed

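RNA of 6 tumor libraries was sequenced in paired-end mode, and replicate numbers and genotypes come from the titles. Per the submitters' processing notes, FastQC, STAR 2.6.0c and DESeq2 were used with the GRCm38 build. What the authors deposited are raw counts, a whole number of pairs for each gene in each library. The first stranded column held 50.05% to 50.19% of stranded counts, so the unstranded column was used, and antisense reads cannot be told apart. Rows that name no gene (unmapped, multimapping, outside exons, ambiguous) held 45.25% to 66.53% of pairs and were left out. Symbols and coordinates are from GENCODE M21 (54079 of 54146 identifiers matched).

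The test was edgeR's quasi-likelihood test (edgeR 4.0.16, R 4.3.3, filterByExpr and TMM), two-sided, with Benjamini-Hochberg adjustment over 19900 genes. For SE, the size of each log2 fold change was divided by the root of its F statistic. For counting error only, the exact two-sided 95% interval of a count of 0 ends at 3.69 read pairs. As a floor, 3 read pairs make 0.0781 to 0.136 CPM by library, here scaled by the gene total without the TMM factor. Promoters are RefSeq sequences. The fit was first tested on simulated counts. Alternatives were DESeq2 1.42.0, RLE factors, library totals, no filter, a stricter filter (CPM of at least 1 in 3 libraries), a stranded column, a robust fit, each library left out, and a replicate block.

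The members and gene lists were chosen with earlier results of these data known. Every tested member is named with its value in each library, members under the filter with their counts, and from each list the 4 genes with the smallest p and those needed to state a count of 5 or fewer. Genes named outside this rule were chosen after their values were seen (Dmkn, the neighbours on chromosome 3, Krt1, Krt28, Klf4, Evpl, Casp14 and Grhl3 among them). Krt85 and Calml5 were not analysed here, and some genes that fell in these lists are counted but not reported by name here.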

Additional observations from a re-analysis of the deposited data

How the results depend on the processing

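With another model, scaling, filter, strand column or dispersion setting, 23 to 37 of the 47 genes were higher and 0 lower: DESeq2 gave 34, RLE factors 32, library totals 33, no filter 37, the stricter filter 23, the stranded column 26 and the robust fit 32. The number tested differed too: 40 in the main fit, 47 with no filter, and fewer than 40 with the stricter filter and the stranded column. The counts of higher genes therefore do not share a denominator. Scaling by library totals moved the median of all genes by 0.057 on the log2 scale and summed levels by at most 5.24%. Leaving out 1 library at a time gave 10 to 41 higher members, 1821 to 4648 higher genes and 2257 to 4778 lower genes. For the lists, the same ranges were 8 to 21 higher cornification enzymes, 9 to 16 higher and 0 to 2 lower envelope partners, 6 to 12 higher and 1 to 2 lower basal and stress genes, 2 to 7 lower regulators and 2 to 6 higher S100 genes. The cause was not tested. Direction turned for genes that did not pass: Tchh (-0.18 to 1.33 over the libraries left out), Aloxe3 (-0.43 to 1.95), Serpinb2 (-0.05 to 1.16), Krt2 (-0.22 to 1.07), Notch1 (-0.02 with no filter, -0.14 to 0.20 over the libraries left out), Tfap2c (-0.42 to 0.49) and S100a13 (-0.08 with no filter, -0.01 with the replicate block, -0.17 to 0.08 over the libraries left out).

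Same-numbered libraries correlated at 0.0529, -0.212 and -0.243 in their deviations from the group means, and the other pairs at -0.105 to 0.253. With 3 libraries in each group such correlations cannot decide whether the numbers pair the libraries, and the labels do not say. With the replicate block 35 members were higher and 0 lower, with 3082 higher and 3580 lower genes. Depth limits the 7 genes under the filter, which have few read pairs outside Ki-67-KO replicate 2.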
